A study of Mus musculus with 10 samples.

Results

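Bile acid synthesis is the main route by which the liver disposes of cholesterol. Hepatocytes convert cholesterol into primary bile acids by modifying its ring system, shortening its side chain and joining the product to taurine or glycine. The classic pathway starts with Cyp7a1 and the alternative pathway with Cyp27a1. The 10 genes described here were chosen by symbol from the deposited table and cover these steps: Cyp7a1, Cyp8b1, Cyp27a1, Cyp7b1, Hsd3b7, Akr1d1, Amacr, Acox2, Slc27a5 and Baat. All 10 were found among the 17274 genes of the table, and all 10 were among the 12053 genes tested, which had a mean of at least 0.5 FPKM over all livers. FPKM is a read count divided by gene length and by the library total.

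The samples were livers of wild-type (WT) mice with nonalcoholic steatohepatitis. Both groups ate the same diet, CDAHFD, which is high in fat, lacks choline and gives its protein as L-amino acids. Each mouse was injected intravenously with a viral vector, an adeno-associated virus (AAV). In 5 livers the AAV encoded miR-181d-5p and in 5 livers it was a control AAV. The promoter and the cells that the vector reached are not given in the sources used here, nor are the age and sex of the mice or the time of day of sampling, and how much of the microRNA each liver held was not analysed here. Whether each sample is a separate mouse is not stated, and the p-values cover only the variation from sample to sample.

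Library totals ran from 18985912 to 20657019 reads in miR-181d-5p livers and from 19118235 to 20337358 in control livers. The tissue label was checked against markers. The 11 measured hepatocyte markers summed to 38960 to 43920 FPKM in miR-181d-5p livers and 37910 to 44520 FPKM in control livers, so these sums overlapped. Alb alone averaged 22980 FPKM in miR-181d-5p livers and 22370 FPKM in control livers. Of the 11 markers, 7 had a log2 change above 0 and 4 one below 0, with a median of 0.04. Stellate cell and fibroblast markers, 8 of 8 with a log2 change below 0 (miR-181d-5p over control), summed to 312 to 413 FPKM in miR-181d-5p livers and 417 to 582 FPKM in control livers. Cholangiocyte markers, 6 of 6 tested with a change below 0, summed to 112 to 368 FPKM in miR-181d-5p livers and 270 to 505 FPKM in control livers when all 8 were counted. Macrophage markers, 6 of 8 with a change below 0, summed to 800.0 to 1013 FPKM in miR-181d-5p livers and 940 to 1226 FPKM in control livers. The change was below 0 in 4 of 5 endothelial markers, 3 of 4 tested lymphocyte markers and 1 of 3 small intestine and pancreas markers. No marker in the table was at 0 in every liver, and limma called none of them. In whole tissue, fewer cells of a type and less RNA per cell cannot be told apart, and the part of these shifts in the results below was not tested.

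The microRNA delivered by the vector is shown first because it defines the treatment, with its seed (bases 2 to 8) in capitals, beside 3 relatives that share the seed (RefSeq, GRCm38.p6).
mmu-miR-181d-5p: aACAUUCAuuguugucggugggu
mmu-miR-181a-5p: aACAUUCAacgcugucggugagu
mmu-miR-181b-5p: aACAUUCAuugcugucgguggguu
mmu-miR-181c-5p: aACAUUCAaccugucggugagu
A gene is read as carrying a seed match where its longest annotated 3' UTR holds TGAATGTA (8mer), TGAATGT (7mer-m8) or GAATGTA (7mer-A1). Of the 10 bile acid genes 3 held such a match, which is Cyp7a1 with 2 and Cyp7b1 and Slc27a5 with 1 each. Of the tested genes, 11770 have a 3' UTR in the annotation, and of these 23.0% held a match and 5.93% an 8mer. The median 3' UTR length was 456.5 bases in the 10 genes and 1114 bases in the tested genes, and shorter UTRs have less room for a match. The sites follow, with the matching bases in capitals and up to 8 bases on either side.
Cyp7a1, 8mer: ccctgaacTGAATGTAtccacata
Cyp7a1, 7mer-m8: ttaacataTGAATGTtcgtgttt
Cyp7b1, 7mer-m8: atttgtagTGAATGTgcttttct
Slc27a5, 7mer-m8: aataaactTGAATGTgtatacaa
On mm10 the Cyp7a1 8mer lies at chr4:6266327-6266334 and its 7mer-m8 at chr4:6266882-6266888, both on the reverse strand in the 3' UTR within exon 6 of 6. The Cyp7b1 site lies at chr3:18072187-18072193 on the reverse strand, in exon 6 of 6. The Slc27a5 site lies at chr7:12988356-12988362 on the reverse strand, in exon 10 of 10. The 3 genes with a match had higher means in miR-181d-5p livers, as did those of the 10 without one, as the values below show. A link between the matches and the levels was not tested. A match describes these letters and does not show that the microRNA binds there, and which 3' UTR the livers used was not tested.

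In every one of the 10 genes the mean was higher in miR-181d-5p livers, by a log2 change of 0.10 to 0.77 on the log2(FPKM + 1) scale. The groups overlapped in 9 of them, and limma called none of the 10 genes at a Benjamini-Hochberg adjusted p of 0.05 over all genes tested. Their adjusted p ran from 0.240 to 0.565. The median log2 change was 0.19 over the 10 genes and -0.02 over all genes tested, of which 45.5% had a change above 0. At an unadjusted p under 0.05 the same fit held 3 of the 10 genes, all higher, against a background of 5.04% of all genes tested that were higher (607 of 12053) and 14.7% in either direction. The groups did not overlap in 1 of the 10 genes, against 2.47% of all genes in either direction and 1.02% that lay wholly higher. No gene of the whole table was called (0 of 12053, or 0%, with 1768 at an unadjusted p under 0.05), and limma voom on recovered reads also called 0. The genes share livers and are not independent of each other, so their common direction is not a count of separate observations.

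**Figure D1:**
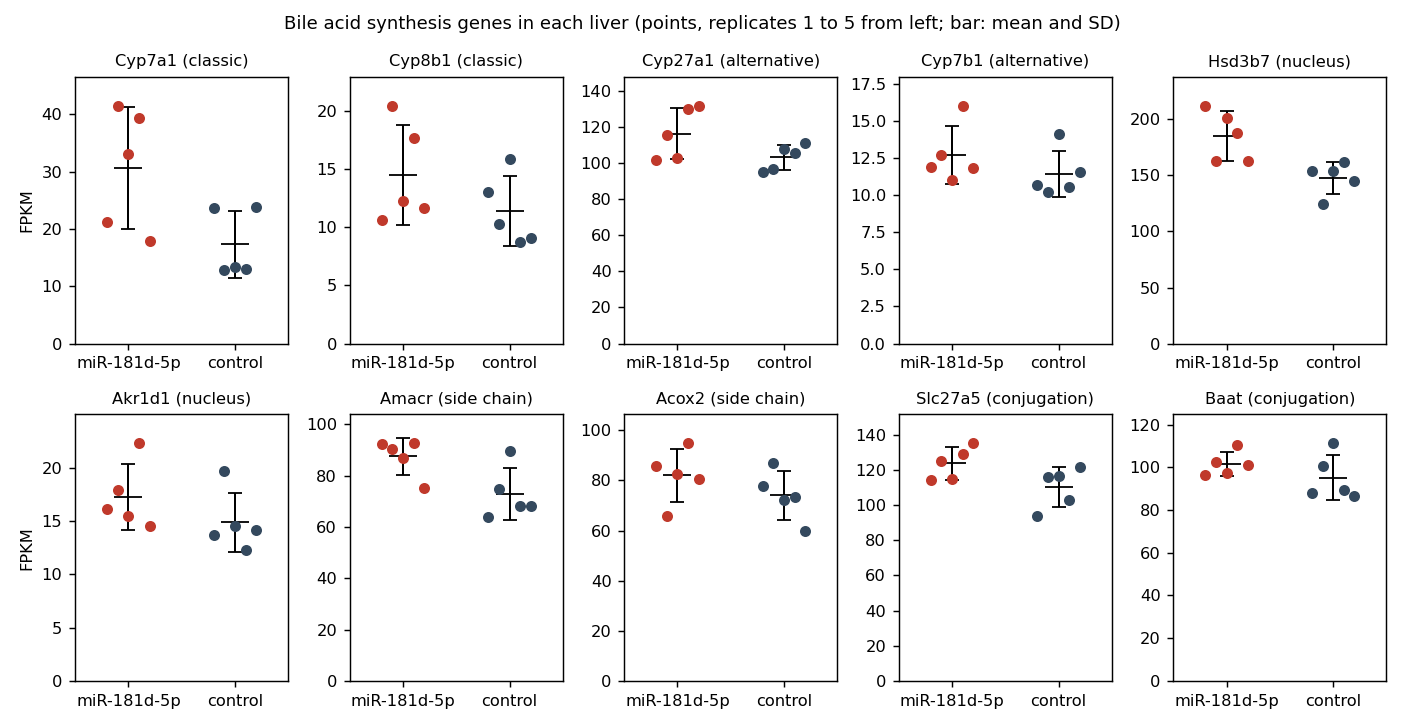
FPKM of each of the 10 genes in each liver, with miR-181d-5p livers in red on the left and control livers in dark blue on the right, and the mean and SD of 5 livers as a bar. Only in the Hsd3b7 panel do all 5 miR-181d-5p points lie above all control points; the highest Cyp7a1 points are 41.5, 39.4 and 33.2 FPKM, all in miR-181d-5p livers.

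In the classic pathway, Cyp7a1 had the largest log2 change of the 10 genes. Cyp7a1 (chromosome 4, 6265612 to 6275633, reverse strand, mm10) encodes cholesterol 7-alpha-hydroxylase, the rate-limiting enzyme of bile acid synthesis. It stood at 21.2, 41.5, 33.2, 39.4 and 17.9 FPKM in miR-181d-5p livers 1 to 5, against 23.7, 12.8, 13.4, 13.1 and 23.8 FPKM in control livers 1 to 5. MiR-181d-5p livers 2, 3 and 4 lay above every control liver, control livers 2, 3 and 4 lay below every miR-181d-5p liver, and the other 4 livers lay between. The means were 30.7 ± 10.6 FPKM in miR-181d-5p livers and 17.4 ± 5.84 FPKM in control livers (SD, n = 5 each), a ratio of 1.77. The log2 change was 0.77 (SE 0.25, 95% interval 0.23 to 1.31) with a limma adjusted p of 0.249. The two-sided exact permutation p of this single gene was 0.0476, unadjusted over the 10 genes. The smallest that relabelling 10 livers can give is 0.00794. This test was run on each of the 10 genes and not on the rest of the table. Its p was under 0.05 in 3 of them, Cyp7a1, Hsd3b7 and Amacr. The exact permutation p was 0.0873 for Slc27a5, 0.119 for Cyp27a1, 0.198 for Cyp8b1 and 0.206 for Akr1d1. For Baat it was 0.246, for Acox2 0.270 and for Cyp7b1 0.278. The log2 change of Cyp7a1 was higher than that of 99.95% of the genes tested. By unadjusted limma p the gene ranked 435 of 12053.

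Each Cyp7a1 value rests on 1018 reads or more, for which counting error is at most 3.13%. The coefficient of variation was 34.7% in miR-181d-5p livers and 33.7% in control livers. Cyp7a1 was the most variable of the 10 genes in both groups. Its 2 seed matches, shown above, include the single 8mer of the 10 genes.

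Cyp8b1 (chromosome 9, 121914356 to 121916305, reverse strand), a gene of 1 exon, encodes sterol 12-alpha-hydroxylase, which directs the pathway to cholic acid. Its values were 10.6, 20.5, 12.3, 17.7 and 11.6 FPKM in miR-181d-5p livers and 13.1, 10.3, 15.9, 8.72 and 9.12 FPKM in control livers. The groups overlapped widely, with miR-181d-5p livers 2 and 4 above the rest. The means of 14.5 ± 4.29 FPKM in miR-181d-5p livers and 11.4 ± 3.02 FPKM in control livers (SD, n = 5 each) gave a log2 change of 0.31 (SE 0.19, 95% interval -0.10 to 0.73). It did not pass (limma adjusted p = 0.443). Leaving out liver 2 of the miR-181d-5p group gave a log2 change of 0.19.

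The promoter of Cyp8b1 is shown because this gene is a textbook target of the liver regulators Hnf4a and Nr5a2 (LRH-1), whose levels follow further on. RefSeq promoter windows (which span each start site, GRCm38.p6) were found for Cyp8b1, Cyp27a1, Hsd3b7, Akr1d1 and Acox2, the last with 2. They were searched on both strands for 4 patterns, which are CAAAGTCCA, a core of HNF4-type sites, CAAGGNCA, an LRH-1-type letter pattern, AGGTCA, a nuclear receptor half-site that overlaps some LRH-1-type matches, and TATAAA, a core promoter element. In the window at chr9:121916256-121916555, reverse strand, the capitals mark one each of CAAAGTCCA and CAAGGNCA, which overlap.
Cyp8b1: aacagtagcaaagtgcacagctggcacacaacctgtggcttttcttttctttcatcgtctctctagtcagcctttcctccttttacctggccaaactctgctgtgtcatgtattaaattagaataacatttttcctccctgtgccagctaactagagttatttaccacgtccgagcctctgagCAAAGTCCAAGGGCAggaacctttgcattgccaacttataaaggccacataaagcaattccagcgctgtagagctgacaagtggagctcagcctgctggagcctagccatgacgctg
In it CAAAGTCCA begins at position -67, CAAGGNCA at -60 and TATAAA at -31 from the start site. Akr1d1 held AGGTCA at -232 and -210, both on the opposite strand to the gene. Of 32851 promoter windows of this length, 0.47% held CAAAGTCCA, 6.71% CAAGGNCA, 16.26% AGGTCA and 13.62% TATAAA. The other windows held none of the 4 patterns, which says nothing beyond the letters of these windows.

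The alternative pathway was read from Cyp27a1 and Cyp7b1, and whether their changes differ from those of the classic genes was not tested. Cyp27a1 (chromosome 1, 74713574 to 74737892) encodes the mitochondrial sterol 27-hydroxylase, which starts the alternative pathway and also oxidises the side chain in the classic one. It stood at 102, 115, 103, 130.2 and 132 FPKM in miR-181d-5p livers, against 95.1, 96.9, 108, 106 and 111 FPKM in control livers. MiR-181d-5p livers 2, 4 and 5 lay above all controls and livers 1 and 3 among them. The means were 116 ± 14.4 FPKM in miR-181d-5p livers and 103 ± 6.87 FPKM in control livers (SD, n = 5 each), a log2 change of 0.17 (SE 0.09, 95% interval -0.02 to 0.36; limma adjusted p = 0.394). Macrophages also express Cyp27a1. Their summed markers, given above, overlapped between the groups, and their part in the level of Cyp27a1 was not tested.

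Cyp7b1 (chromosome 3, 18071950 to 18243338, reverse strand) encodes oxysterol 7-alpha-hydroxylase, the next enzyme of the alternative pathway. It stood at 11.9, 12.7, 11.0, 16.0 and 11.9 FPKM in miR-181d-5p livers and 10.7, 10.2, 14.1, 10.6 and 11.5 FPKM in control livers. Liver 4 of the miR-181d-5p group was highest and control liver 3 next, with the other 8 between 10.2 and 12.7 FPKM. The log2 change of 0.14 (SE 0.11, 95% interval -0.09 to 0.37) did not pass (limma adjusted p = 0.544). It was 0.06 without miR-181d-5p liver 4 and 0.21 without control liver 3.

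**Figure D2:**
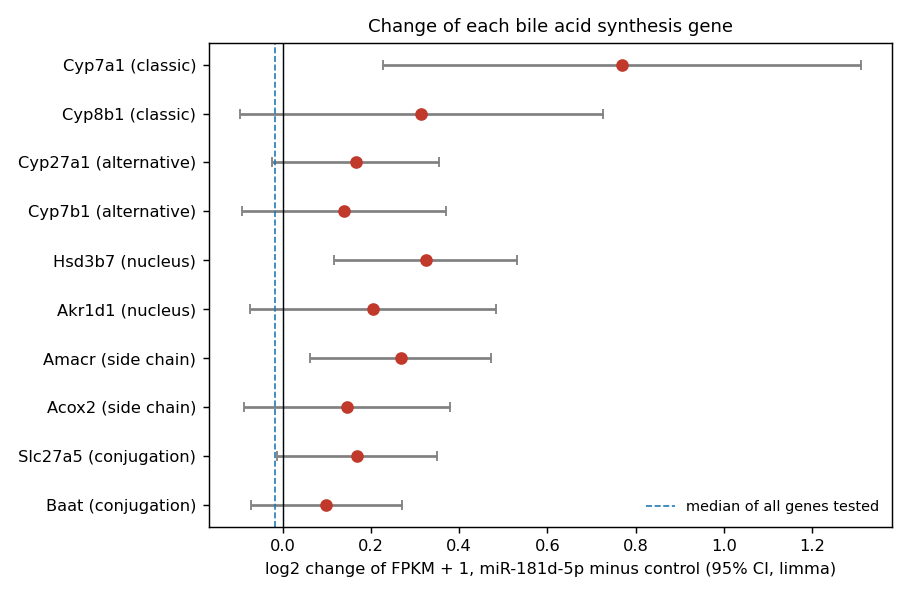
Log2 change of FPKM + 1 for each gene, miR-181d-5p minus control, with its 95% interval from limma (5 livers a group) and the median of all genes tested as a dashed line. All 10 points lie right of 0, from 0.10 for Baat to 0.77 for Cyp7a1, and the intervals of 7 genes include 0.

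The balance of the pathways was read within each liver, as log2 ratios of FPKM + 1. Scaling between livers cancels in such ratios apart from the effect of the added 1. For Cyp7a1 over Cyp7b1, the 2 enzymes that place the same hydroxyl group, the log2 ratio was 0.79, 1.64, 1.51, 1.25 and 0.56 in miR-181d-5p livers 1 to 5 and 1.08, 0.29, -0.07, 0.28 and 0.98 in control livers 1 to 5. Livers 2, 3 and 4 of the miR-181d-5p group lay above all controls, and livers 1 and 5 lay within the control range. The group medians were 1.25 in miR-181d-5p livers and 0.29 in control livers.

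Against Cyp27a1 the pattern of Cyp7a1 was alike. The median log2 ratio of Cyp7a1 over Cyp27a1 was -1.70 in miR-181d-5p livers (-2.81 to -1.45) and -2.83 in control livers (-2.92 to -1.96). Cyp8b1 was read the same way. Its median log2 ratio over Cyp27a1 was -2.97 in miR-181d-5p livers and -3.12 in control livers, and over Cyp7b1 it was 0.13 in miR-181d-5p livers and 0.01 in control livers. For the mean of Cyp7a1 and Cyp8b1 minus that of Cyp27a1 and Cyp7b1, the medians were -0.78 in miR-181d-5p livers (-1.42 to -0.40) and -1.38 in control livers (-1.59 to -0.84). Here the medians differed by 0.59 and the means by 0.39. The groups overlapped in each of these 5 ratios. They are descriptions with no test. For Cyp7a1 over Cyp7b1 the difference of medians was 0.95 and that of means 0.63, and with a liver left out the difference of medians ran from 0.61, without control liver 3 or 4, to 1.08. For Cyp7a1 over Cyp27a1 these differences were 1.13 and 0.61, and the difference of medians was 0.80 without control liver 3 or 4. For Cyp8b1 over Cyp27a1 both were 0.15, but the difference of medians was -0.02 without control liver 4 or 5, 0.06 without miR-181d-5p liver 2 or 4 and 0.32 without control liver 1 or 3, so that its direction rests on single livers. For Cyp8b1 over Cyp7b1 the medians differed by 0.13 and the means by 0.18. There the difference of medians was 0.05 without miR-181d-5p liver 2, 3 or 4 or control liver 4 or 5, and 0.26 without control liver 1 or 3.

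**Figure D3:**
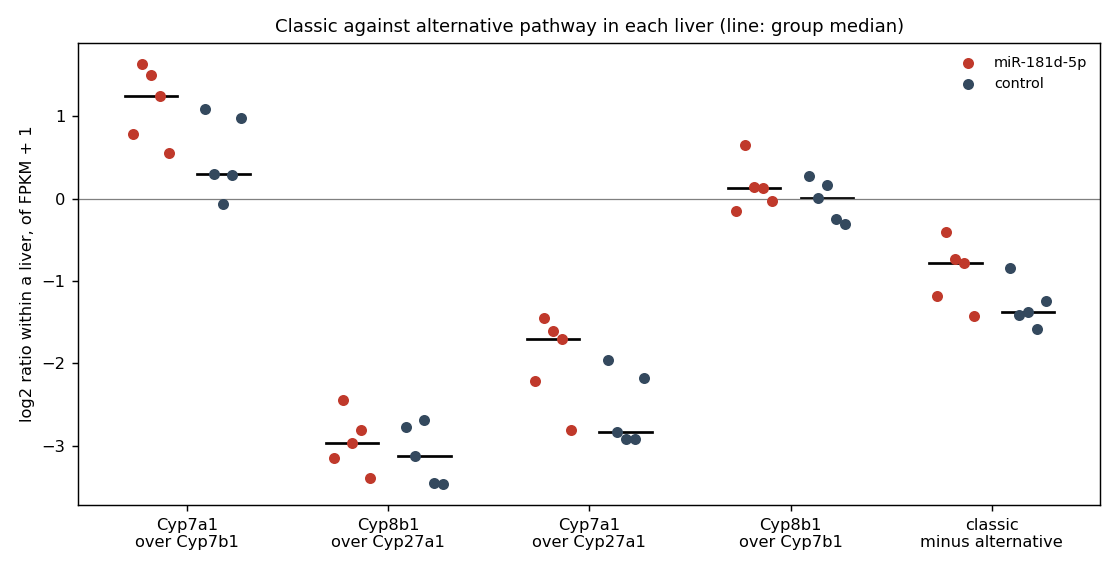
Log2 ratios of FPKM + 1 within each liver for 4 pairs of classic and alternative genes and for the mean of the pairs, with miR-181d-5p livers in red on the left of each pair, control livers in dark blue, and group medians as lines. The medians of the ratios with Cyp7a1 stand 0.95 and 1.13 higher in miR-181d-5p livers (means 0.63 and 0.61 higher). Those with Cyp8b1 stand 0.15 and 0.13 higher (means 0.15 and 0.18 higher). For the mean of the pairs the median stands 0.59 higher and the mean 0.39 higher. The points of the groups overlap in each.

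Both pathways share the enzymes that modify the ring system. Hsd3b7 (chromosome 7, 127800604 to 127803802), which encodes the 3-beta-hydroxy-C27-steroid dehydrogenase acting after 7-alpha-hydroxylation, was the gene whose groups did not overlap. It stood at 212, 163, 201, 188 and 163 FPKM in miR-181d-5p livers and 154, 124, 154, 162 and 145 FPKM in control livers. The margin was narrow, from 162.7 FPKM in the lowest miR-181d-5p liver to 162.2 FPKM in the highest control liver. The means were 185 ± 22.2 FPKM in miR-181d-5p livers and 148 ± 14.4 FPKM in control livers (SD, n = 5 each). The log2 change of 0.32 (SE 0.10, 95% interval 0.12 to 0.53) did not pass over all genes (limma adjusted p = 0.240). Its exact permutation p of 0.00794, two-sided and unadjusted over the 10 genes, is the smallest that 10 livers can give. The merged exons of Hsd3b7 span 2769 bases in the annotation used here. The length recovered from the FPKM was 2056 bases, so the shares that follow may not hold for the exons counted. Of the merged exons, 62.4% lie under an annotated transcript on the opposite strand, and the sources used here do not say whether counting used the strand. Counted separately, 62.0% lie under the annotated protein-coding gene Gm49388 on the same strand, which counting by strand would not separate. Neither gene is listed in the table, and nothing read here states how their reads were assigned, which leaves the level of Hsd3b7 uncertain.

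Akr1d1 (chromosome 6, 37530173 to 37568815) encodes the steroid 5-beta-reductase, which sets the bent ring shape of bile acids. It stood at 16.1, 17.9, 15.5, 22.3 and 14.5 FPKM in miR-181d-5p livers and 13.7, 19.7, 14.5, 12.3 and 14.2 FPKM in control livers. The groups overlapped, with control liver 2 second highest of the 10 livers. The log2 change of 0.20 (SE 0.13, 95% interval -0.08 to 0.48; limma adjusted p = 0.461) was 0.11 without miR-181d-5p liver 4.

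Side-chain shortening takes place in peroxisomes. Amacr (chromosome 15, 10981756 to 10996626) encodes the racemase that turns the side chain into the form the oxidase accepts. It stood at 92.3, 90.2, 87.0, 92.7 and 75.0 FPKM in miR-181d-5p livers and 63.7, 74.6, 89.7, 67.9 and 68.0 FPKM in control livers. One control liver, number 3, lay among the miR-181d-5p livers, and the other 4 lay below them all. The means of 87.5 ± 7.29 FPKM in miR-181d-5p livers and 72.8 ± 10.2 FPKM in control livers (SD, n = 5 each) gave a log2 change of 0.27 (SE 0.10, 95% interval 0.06 to 0.47). Amacr did not pass (limma adjusted p = 0.260), and its exact permutation p, two-sided and unadjusted, was 0.0317.

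Acox2 (chromosome 14, 8225511 to 8259353, reverse strand) encodes the branched-chain oxidase that acts next. Its values were 85.8, 65.8, 82.7, 94.9 and 80.7 FPKM in miR-181d-5p livers and 77.9, 86.8, 72.1, 73.3 and 60.0 FPKM in control livers. The groups were mixed, the second lowest value being that of miR-181d-5p liver 2 and the second highest that of control liver 2. The log2 change of 0.15 (SE 0.11, 95% interval -0.09 to 0.38; limma adjusted p = 0.532) ran from 0.07 without control liver 5 and 0.09 without miR-181d-5p liver 4 to 0.22 without miR-181d-5p liver 2.

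Conjugation is the last step. Slc27a5 (chromosome 7, 12988346 to 12998192, reverse strand) encodes bile acyl-CoA synthetase, which activates bile acids for it. It stood at 114, 125, 115, 129 and 135 FPKM in miR-181d-5p livers and 93.5, 116, 117, 103 and 122 FPKM in control livers. MiR-181d-5p livers 2, 4 and 5 lay above all controls, and livers 1 and 3 lay among them. The log2 change of 0.17 (SE 0.08, 95% interval -0.01 to 0.35; limma adjusted p = 0.366) was 0.11 without control liver 1.

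Baat (chromosome 4, 49489422 to 49506557, reverse strand) encodes the transferase that joins the activated bile acid to taurine or glycine. It stood at 96.5, 103, 97.4, 111 and 101 FPKM in miR-181d-5p livers and 88.2, 101, 111, 89.2 and 86.5 FPKM in control livers. Its highest value was in control liver 3, so no miR-181d-5p liver lay above all controls. It had the smallest log2 change of the 10 genes, 0.10 (SE 0.08, 95% interval -0.07 to 0.27; limma adjusted p = 0.565), which was 0.16 without control liver 3 and 0.07 after quantile normalization.

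**Figure D4:**
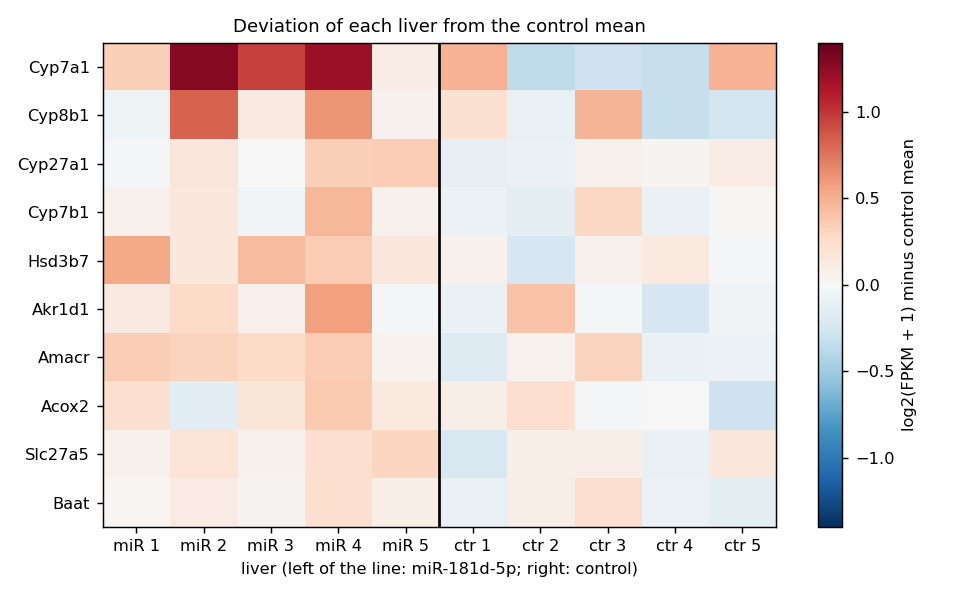
Colour shows log2(FPKM + 1) of each gene (rows) in each liver (columns, miR-181d-5p left of the line and control right) minus the mean of the control livers. MiR-181d-5p liver 4 is above the control mean in all 10 genes, and the strongest colours are those of Cyp7a1 in miR-181d-5p livers 2, 3 and 4.

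Seen by liver, most of the 10 genes lay above the control mean in each miR-181d-5p liver, by amounts that differed between livers. MiR-181d-5p liver 4 had the highest value of all 10 livers in 4 genes and lay above the control mean in all 10, by 0.47 on average on the log2 scale. The other miR-181d-5p livers lay above it in 8 or 9 genes, by 0.13 to 0.33. Control livers stood between -0.11 and 0.12, and control liver 3 lay above the control mean in 7 genes. No miR-181d-5p liver held the lowest value of any of the 10 genes.

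By level, the order over both groups ran from Hsd3b7 down through Slc27a5, Cyp27a1, Baat, Amacr, Acox2, Cyp7a1, Akr1d1 and Cyp8b1 to Cyp7b1. FPKM is per length, so this order depends on the gene lengths used. Those recovered from the FPKM were 6582 bases for Akr1d1 and 4173 for Cyp7a1. Whether they match the transcripts in these livers was not tested, and the level of Hsd3b7 is uncertain, as stated above. Hsd3b7 stood above Slc27a5 in 10 of 10 livers, Baat above Amacr in 10 of 10 and Acox2 above Cyp7a1 in 10 of 10. The order of the other neighbours was not the same in every liver. Amacr stood above Acox2 in 5 of 10 livers and Cyp8b1 above Cyp7b1 in 6 of 10, Slc27a5 above Cyp27a1 in 7 of 10, and Cyp27a1 above Baat, Cyp7a1 above Akr1d1 and Akr1d1 above Cyp8b1 in 8 of 10 each. Cyp7a1 stood above Akr1d1 in all 5 miR-181d-5p livers and in 3 of 5 control livers.

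Once the group means were removed, the genes of the pathway varied together only in part. Pearson's r over 10 livers was 0.47 for Cyp7a1 with Cyp8b1 (permutation p = 0.161; Spearman's rho 0.53, permutation p = 0.125) and 0.27 without the 2 livers farthest on Cyp7a1. For Cyp8b1 with Cyp7b1 r was 0.65 (permutation p = 0.0369, 0.258 after Benjamini-Hochberg adjustment; rho 0.36, permutation p = 0.314, 0.441 adjusted), and 0.60 without the 2 farthest livers. For Cyp27a1 with Cyp7b1 it was 0.59 (permutation p = 0.0793; rho 0.55, permutation p = 0.107), and 0.49 without the 2 farthest. Cyp7a1 with Cyp7b1 gave 0.23 (permutation p = 0.489; rho 0.33, permutation p = 0.348), and 0.19 without them. Within a group r rests on 5 livers and is given without a test. For Cyp7a1 with Cyp8b1 it was 0.848 in miR-181d-5p livers and -0.035 in control livers. For Cyp7a1 with Cyp7b1 it was 0.488 in miR-181d-5p livers and -0.113 in control livers. Cyp8b1 with Cyp7b1 gave 0.627 and 0.685 in the same order, and Cyp27a1 with Cyp7b1 0.61 and 0.582. Whether these relations are alike in both groups was not tested. Of 8 relations computed, including 4 with regulators, none passed after adjustment, the lowest adjusted p being 0.258 for r and 0.250 for rho.

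The genes whose deviations were most like those of each pathway enzyme were looked up among 10797 genes, as a description over 10 livers. The highest r of so many genes is high by selection, and no background for it was computed. For Cyp7a1 they were Srebf1 (r = 0.91), Tdp2 (r = 0.88) and Serpina6 (r = 0.88). Srebf1, which encodes a transcription factor of fatty acid synthesis, stood at 51.0, 77.4, 57.2, 58.0 and 30.6 FPKM in miR-181d-5p livers and 46.5, 27.0, 22.2, 23.2 and 43.6 FPKM in control livers. As with Cyp7a1, control livers 1 and 5 stood highest in their group and miR-181d-5p liver 5 lowest in its own. This likeness follows from how Srebf1 was chosen. The log2 change of Srebf1, 0.75 (SE 0.25), did not pass either (limma adjusted p = 0.250). For Cyp8b1 the most alike were Bdh1 (r = 0.93), a ketone body enzyme, Slc25a10 (r = 0.92) and Miga2 (r = 0.89). For Cyp27a1 they were Cyp2c39 (r = 0.98), Tmem82 (r = 0.94) and Cdkn3 (r = 0.93), and for Cyp7b1 Prdx6 (r = 0.91), Ces1f (r = 0.90) and As3mt (r = 0.90).

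Other genes of bile acid synthesis were read in the same fit, from a list of 15 of which 12 were tested. The log2 change was above 0 in 10 and below 0 in 2, with a median of 0.12, and limma called none in either direction; none had an unadjusted p under 0.05. Cyp2c70, which makes the muricholic acids of mice, stood at 223 ± 21.9 FPKM in miR-181d-5p livers and 186 ± 41.1 FPKM in control livers (SD, n = 5 each; limma adjusted p = 0.350). Akr1c14, a steroid dehydrogenase, averaged 78.5 FPKM in miR-181d-5p livers and 69.6 FPKM in control livers, and Fdxr, which passes electrons to mitochondrial P450 enzymes, 10.3 FPKM in miR-181d-5p livers and 9.04 FPKM in control livers. Ch25h, which makes 25-hydroxycholesterol, had a lower mean, but its control mean of 4.71 FPKM came largely from 16.9 FPKM in control liver 5. The other 4 control livers ran from 0.842 to 2.98 FPKM and the miR-181d-5p livers from 0.700 to 1.35 FPKM. The tested genes of this list other than Ch25h and Por had positive log2 changes between 0.03 and 0.28.

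Regulators of the pathway were read next. Bile acids repress Cyp7a1 and Cyp8b1 through the receptor Nr1h4 (FXR) and its target Nr0b2 (SHP), while Hnf4a activates both and Nr5a2 acts on Cyp8b1. Of 20 tested regulators, 13 had a log2 change above 0, 6 one below 0 and 1 (Nr1i2) a change of 0.00, with a median of 0.02, and limma called none; 1, lower, had an unadjusted p under 0.05, against 9.63% of all genes. Ppargc1a, a coactivator of nuclear receptors, was that gene. It stood at 0.316, 0.475, 0.374, 0.432 and 0.516 FPKM in miR-181d-5p livers and 0.754, 0.832, 0.644, 0.649 and 0.551 FPKM in control livers (log2 change -0.25, SE 0.07; limma adjusted p = 0.232). Its means were 0.423 FPKM in miR-181d-5p livers and 0.686 FPKM in control livers, so it passed the filter of 0.5 FPKM only through the control livers, and its p supports nothing. The next by p were Foxo1 (log2 change -0.23), Foxa2 (0.29) and Nr1h4 (0.12).

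Nr0b2 stood at 7.87, 20.7, 16.0, 14.7 and 15.3 FPKM in miR-181d-5p livers and 15.5, 30.5, 29.0, 21.8 and 9.80 FPKM in control livers. Its lowest control values were in livers 1 and 5, where Cyp7a1 was highest in that group, while in the miR-181d-5p group it was highest in liver 2, where Cyp7a1 was highest too. Over 10 livers r between the deviations of Cyp7a1 and Nr0b2 was -0.21 (permutation p = 0.555; rho -0.14, permutation p = 0.707), and -0.39 without the 2 livers farthest on Cyp7a1. Within the groups of 5 livers it was 0.577 in miR-181d-5p livers and -0.903 in control livers, and this difference was not tested. Cyp8b1 with Nr0b2 gave 0.51 (permutation p = 0.134; rho 0.53, permutation p = 0.124), and 0.22 without the 2 farthest on Cyp8b1. Hnf4a and Nr5a2, named for the promoter shown above after their values were seen, averaged 99.7 and 10.3 FPKM in miR-181d-5p livers and 99.7 and 9.73 FPKM in control livers, with log2 changes of 0.02 and 0.08.

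**Figure D5:**
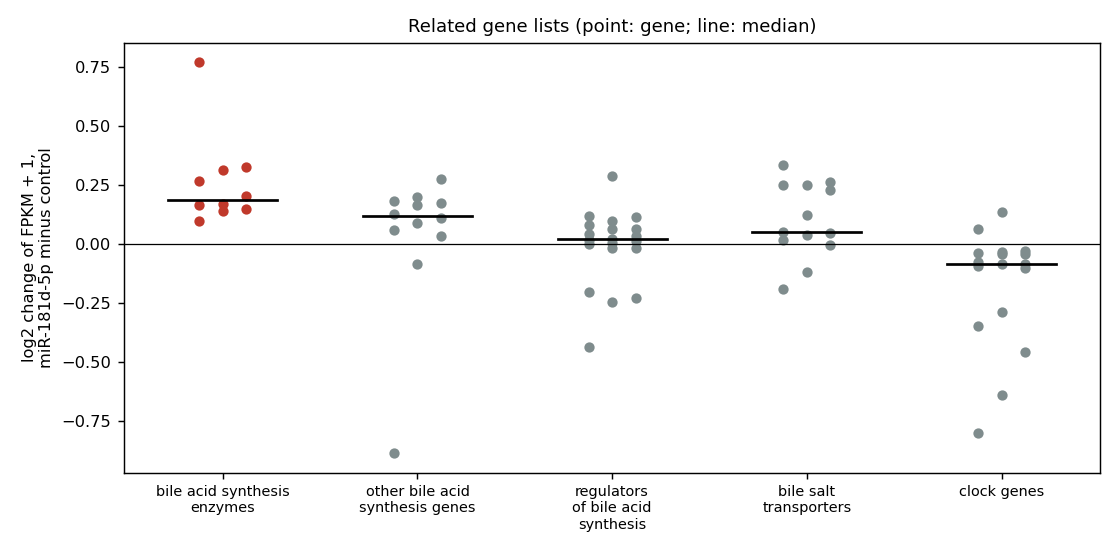
Log2 change of FPKM + 1, miR-181d-5p minus control, for each tested gene (point) of the 10 bile acid synthesis genes in red and of 4 related lists in grey, with list medians as lines. The 10 genes have a median of 0.19, other synthesis genes 0.12, transporters 0.05, regulators 0.02 and clock genes -0.09.

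Bile salt transporters carry the products out of and back into the hepatocyte. The list read here also held transporters of other substances, such as Abcg5 and Abcg8. Of 13 tested, 10 had a log2 change above 0 and 3 one below 0 (median 0.05), limma called none, and 1, higher, had an unadjusted p under 0.05, against 5.04% of all genes. That was Abcb11, the bile salt export pump, at 65.3 ± 5.89 FPKM in miR-181d-5p livers and 52.6 ± 12.7 FPKM in control livers (SD, n = 5 each; log2 change 0.33, limma adjusted p = 0.311). Abcg5, Slco1b2 and Abcg8 followed by p, with log2 changes of 0.26, 0.12 and 0.25.

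Cyp7a1 has a daily rhythm in rodent liver, and the clock output factor Dbp activates it. Of 17 tested clock genes, 2 had a log2 change above 0 and 15 one below 0, with a median of -0.09, against 45.5% of all genes with a change above 0. Limma called none of them, and 3, all lower, had an unadjusted p under 0.05, against 9.63% of all genes that were lower. Those were Per1, at 3.52 ± 1.13 FPKM in miR-181d-5p livers and 6.77 ± 1.20 FPKM in control livers (SD, n = 5 each), Bhlhe40 and Ciart, with log2 changes of -0.80, -0.46 and -0.64, followed by Bhlhe41 at -0.29. Dbp averaged 50.6 ± 11.7 FPKM in miR-181d-5p livers and 49.2 ± 14.7 FPKM in control livers (SD, n = 5 each). Its deviations gave r = 0.21 with those of Cyp7a1 (permutation p = 0.551; rho 0.31, permutation p = 0.386), and 0.35 without the 2 farthest livers. With those of Cyp7b1 they gave r = 0.52 (permutation p = 0.116; rho 0.65, permutation p = 0.0491, 0.250 after adjustment over the 8 relations), and 0.74 without the 2 farthest. The part of sampling time in the level of Cyp7a1 was not tested.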

How the data were processed

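RNA-seq of 10 livers was read from 1 table of FPKM that the authors deposited, with 1 column per sample, matched to samples by group and number. The submitters' processing notes name HISAT2 2.2.1, HTSeq 0.13.5, Trimmomatic 0.38, FastQC 0.11.9, DESeq2 1.18.1 and R 3.4.1, and mm10, with no role or order. Libraries were made with a stranded mRNA kit, per the labels' protocols.

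Whole reads, within 0.02 of a read, were recovered from the FPKM for 17273 of 17274 genes (99.994%) by a search over gene lengths and library totals. The main test was limma 3.58.1 in R 4.3.3 on log2(FPKM + 1), with a mean-variance trend, group as the only term and adjustment over all 12053 genes whose mean reached 0.5 FPKM. The pseudocount understates changes of low genes. The script was tested on simulated data. Single genes also had an exact permutation test; correlations used 100000 resamples. Gene positions and 3' UTRs came from GENCODE vM21 (mm10). The named genes were the 10 members, up to 4 genes of smallest p per related list and the 3 genes most like each pathway enzyme, of at least 1 FPKM. The members and lists were chosen with earlier results of these data known. Counting errors cover counting only. No 2 livers of a group agreed within counting noise (lowest chi-square per degree of freedom 9.51). Alternatives were other pseudocounts, filters and scalings, array weights, a replicate block, voom and leaving out each liver. Python 3.11.15, pandas 2.3.3, numpy 2.4.6, scipy 1.17.1 and matplotlib 3.10.9 did the rest.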

Additional observations from a re-analysis of the deposited data

How the results depend on the processing

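In 180 refits of the 10 genes (18 alternatives each), none turned a log2 change below 0 and none brought a gene past the threshold, the lowest adjusted p being 0.152, for Cyp7a1. Its log2 change ran from 0.65 to 0.94 and that of Hsd3b7 from 0.26 to 0.37. The number of bile acid genes called was 0 in each. Over all genes 0 were called in the main fit, 1 with a replicate block and 0 to 3 when a liver was left out (3 without control liver 1, 1 each without control liver 5 and miR-181d-5p liver 3); the cause was not tested. Same-numbered livers were not treated as pairs in the main fit, and their deviations correlated at -0.283 to 0.015 across genes. Livers of different numbers were not compared, so these values cannot settle whether the numbers pair the livers. Counting only 8mers, the genes with a seed match were 1, not 3, by construction. The difference of medians between pathways was 0.62 with a pseudocount of 0.1 FPKM and 0.40 to 0.62 with a liver left out, against 0.59. The difference of means in the main setting was 0.39. Protein identity between the enzymes was planned and not run. Each of the 10 genes had 341 reads or more per liver, and the 95% intervals of 7 of them include 0.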
